A study of Rattus norvegicus with 9 samples.

Results

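The metallothionein genes Mt1 and Mt2A, the zinc-sensing transcription factor gene Mtf1, the zinc exporter gene Slc30a1 and the metal importer gene Slc39a14 were followed in the livers of 9 rats. These 5 genes, of 14217 on the array with a symbol of their own, had 8 of the 31042 probe sets: 1 each for Mt1, Mt2A and Slc30a1, 3 for Mtf1 and 2 for Slc39a14. The probe sets were taken by gene symbol from the array annotation, but the genes themselves had been selected on group differences seen earlier on these same 9 arrays. Their signals and differences are therefore given as a description, with no test. Each gene set beside them was compared by limma over all probe sets.

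All rats were male Goto-Kakizaki (GK) rats, an inbred strain that becomes diabetic without treatment. They were bought at 5 weeks of age and kept for 7 weeks until diabetes appeared. Rats CUMS 1–3, which the labels give as major depression, and CUMS 4–6, given as mild depression, then went through 8 weeks of chronic unpredictable mild stress (CUMS) while housed alone, and control 1–3, given as undepression, were kept without stress. All rats, stressed or not, had been dosed with the antidiabetic drug repaglinide before the livers were taken, so no group shows untreated or non-diabetic liver. Each rat had 1 array. How single CUMS rats were assigned to the major or the mild label is not given in the sources used here.

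Metallothioneins are small proteins rich in cysteine that bind zinc and copper through their thiol groups. When zinc rises in a cell, the zinc finger protein MTF-1 (Mtf1) binds short metal response elements and switches on the metallothionein genes and Slc30a1, whose product ZnT1 carries zinc out of the cell. Glucocorticoids and inflammatory signals such as IL-6 also raise metallothionein in rodent liver. Slc39a14 encodes ZIP14, which carries zinc, iron and manganese into hepatocytes.

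The sequences before the start sites of Mt1 and Mt2A are shown because both genes were lowest in the same rats, CUMS 1, 2 and 5. They lie next to each other on chromosome 19, with 0 annotated genes between them. The RefSeq promoters (build GRCr8) were searched on both strands for the core of the metal response element, spelled TGCACNC or TGCGCNC. The 250 bases before the start of Mt1 (chr19:10832976-10833225, minus strand) and of Mt2A (chr19:10838709-10838958, minus strand) are given 5′ to 3′, with each match on either strand in capitals.
Mt1: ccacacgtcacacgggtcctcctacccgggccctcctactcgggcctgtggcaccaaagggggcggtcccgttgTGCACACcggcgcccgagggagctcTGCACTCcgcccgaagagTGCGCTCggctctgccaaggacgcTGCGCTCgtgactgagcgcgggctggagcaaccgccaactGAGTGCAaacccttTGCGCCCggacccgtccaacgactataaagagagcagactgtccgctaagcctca
Mt2A: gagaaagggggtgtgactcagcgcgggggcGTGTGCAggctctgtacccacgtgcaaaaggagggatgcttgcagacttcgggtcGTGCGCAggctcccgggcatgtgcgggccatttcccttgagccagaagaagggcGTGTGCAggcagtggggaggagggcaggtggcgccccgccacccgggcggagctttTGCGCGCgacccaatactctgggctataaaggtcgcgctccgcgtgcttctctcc
Mt1 held 6 matches, 5 on its own strand and 1 on the opposite strand, and Mt2A held 4, 1 on its own strand and 3 on the opposite strand. No match overlapped another. The match nearest to the start lay at the same place in both genes, 55 to 49 bases before it. In the same window Mtf1 and Slc30a1 held 2 matches each. Of 33469 rat promoters, 20.6% held at least 1 match, 3.99% at least 2, 0.128% at least 4 and 0.0239% at least 6. Metallothionein genes are known targets of MTF-1, so matches before them were foreseen and nothing is read from these shares. A match is a run of letters and not a measured binding site. Slc39a14 had no entry among these promoters.

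As a check of the material, all 9 measured hepatocyte markers, such as Alb and Apoa1, lay above the median signal of every array. The least typical array was control 3. Its correlations with the other arrays had a median of 0.951, against 0.965 to 0.972 for the rest, and its summed signal of 13 stellate cell and fibroblast markers was 43197, against 6563 to 7440 in CUMS 1–3, 8229 to 9999 in CUMS 4–6 and 10957 and 11153 in control 2 and 1. The 3′ to 5′ signal ratio of beta-actin, a measure of RNA integrity, was 5.23 in CUMS 2, 4.96 in CUMS 4 and between 2.51 and 3.73 in the other 7 rats. In whole liver, fewer cells of a type and less RNA per cell cannot be told apart.

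Mt1 signals were lower in all 3 rats of CUMS 1–3 than in any control rat. They read 153, 241 and 346 in CUMS 1, 2 and 3, 430, 240 and 485 in CUMS 4, 5 and 6, and 538, 531 and 452 in control 1, 2 and 3. The lowest rats were CUMS 1, 5 and 2, while CUMS 6 lay above control 3, so that CUMS 4–6 and control overlapped. Group means were 247 ± 96.6 in CUMS 1–3, 385 ± 128 in CUMS 4–6 and 507 ± 47.6 in control (SD, n = 3 each). The log2 difference from control was −1.11 (standard error 0.31), 0.462 times the control level, in CUMS 1–3, and −0.46 (standard error 0.31), 0.729 times, in CUMS 4–6. Over all 6 CUMS rats it was −0.78 (standard error 0.27), or 0.581 times control. CUMS 1–3 stood at 0.634 times CUMS 4–6, a log2 difference of −0.66 that became −0.35 without CUMS 1, with overlapping rats.

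Mt2A had a much wider spread, and it did not follow the symptom labels. Its signals were 2730, 3741 and 19188 in CUMS 1, 2 and 3, 18522, 3728 and 12210 in CUMS 4, 5 and 6, and 19497, 18872 and 12027 in control 1, 2 and 3. CUMS 1, 2 and 5 lay far below every control rat, whereas CUMS 3, 4 and 6 lay within the control range. Both stressed groups thus held low and high rats. Between the highest and the lowest CUMS rat the signal differed 7.03-fold, against 1.62-fold among the controls, and on the log2 scale the SD was 1.51 in CUMS 1–3, 1.2 in CUMS 4–6 and 0.39 in control.

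Group means of Mt2A were 8553 ± 9224, 11487 ± 7423 and 16799 ± 4144 in CUMS 1–3, CUMS 4–6 and control (SD, n = 3 each). The log2 difference from control was −1.50 (standard error 0.70), or 0.354 times, in CUMS 1–3 and −0.80 (standard error 0.70), or 0.575 times, in CUMS 4–6. Single rats decided these values. In CUMS 1–3 the log2 difference was −2.36 without CUMS 3 and −0.95 without CUMS 1, and in CUMS 4–6 it was −0.13 without CUMS 5. The Mt1 difference in CUMS 4–6, −0.46, was likewise −0.15 without CUMS 5. Leaving out control 3, the least typical array, gave −1.72 for Mt2A and −1.19 for Mt1 in CUMS 1–3. Both metallothioneins thus ranked control highest, CUMS 4–6 in the middle and CUMS 1–3 lowest by group mean. Neighbouring groups in this order overlapped for both genes, and of all pairs only CUMS 1–3 against control for Mt1 did not.

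**Figure D1:**
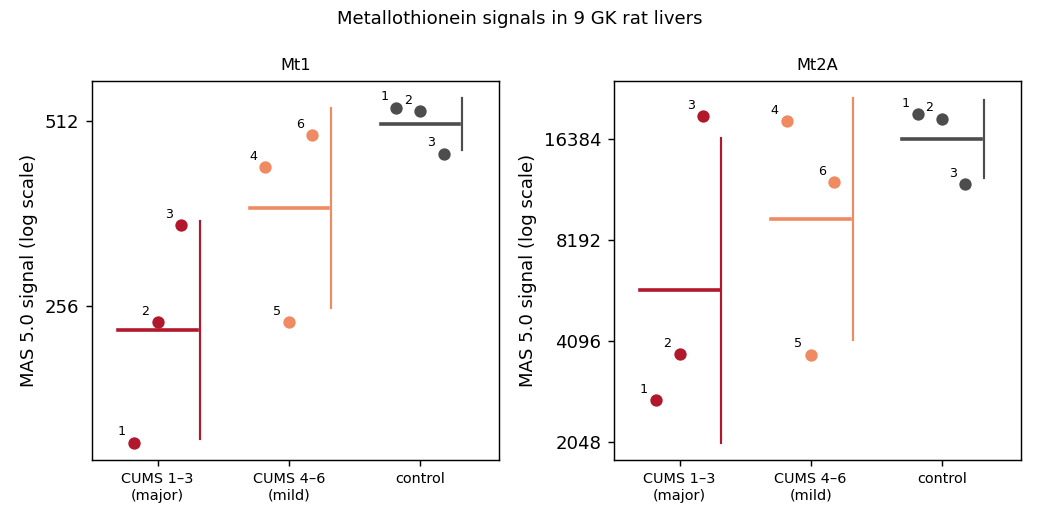
MAS 5.0 signals (log axis) of Mt1 and Mt2A in CUMS 1–3, CUMS 4–6 and control; points are rats with their numbers, horizontal bars the mean of the log2 signals and vertical bars ± 1 SD of them (n = 3 rats per group). Mt2A lies between 2730 and 3741 in CUMS 1, 2 and 5 and between 12027 and 19497 in the other 6 rats.

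Both metallothioneins were lowest in the same rats, CUMS 1, 2 and 5. The 2 probe sets had a Pearson's r of 0.906 and a Spearman's rho of 0.783 over the 9 rats, and r was 0.910 once each group's mean had been taken off. It was 0.780 without CUMS 1 and CUMS 5, the rats farthest from the median of Mt1, but CUMS 2 was still included. Outside CUMS 1, 2 and 5 the genes did not keep the same order. There CUMS 3 had the lowest Mt1, 346, with Mt2A at 19188, while CUMS 6 had Mt1 at 485 and Mt2A at 12210. No p is given, since both genes were chosen from these arrays. Metallothionein transcripts are much alike in sequence, and binding of one to the probes of the other was not tested. A further probe set could not be assigned to 1 gene and was left out of the 8, since the annotation gives it 3 symbols, Mt1, Mt1f and Ttr, the last an abundant hepatocyte gene that is no metallothionein. It read 7973, 10559 and 26401 in CUMS 1–3, 26712, 10946 and 26912 in CUMS 4–6 and 30547, 27970 and 21823 in control 1–3. Its lowest signals were in CUMS 1, 2 and 5. CUMS 3 lay within the control range, so CUMS 1–3 and control overlapped here, unlike in the Mt1 probe set. Which of these transcripts it measured is not known.

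**Figure D2:**
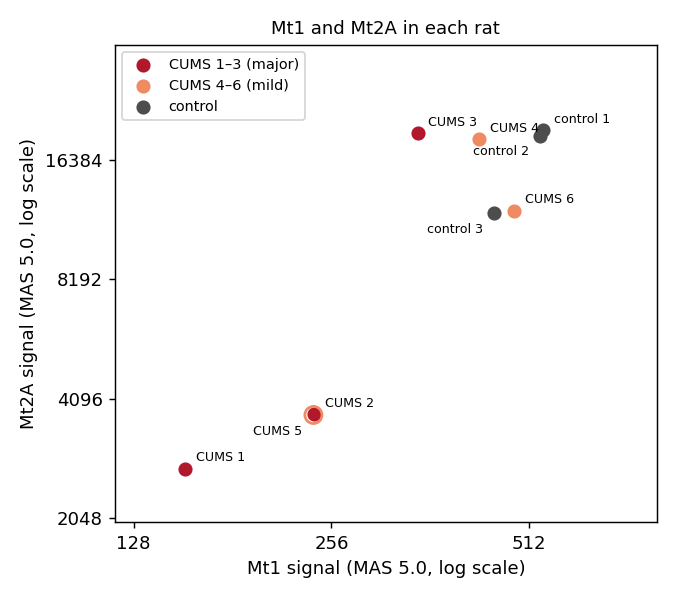
Mt2A signal against Mt1 signal (both MAS 5.0, log axes) in each of the 9 rats; the open circle is CUMS 5, which lies on CUMS 2. CUMS 1, 2 and 5 lie apart at the lower left, with Mt1 between 153 and 241.

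The spread of Mt2A was among the widest on the array. Its log2 range over the 9 rats was 2.84, a range exceeded by 1.81% of the 18625 probe sets kept by the signal filter, whose median range was 0.80. For Mt1 the range was 1.81, exceeded by 8.41%. Both genes were chosen on group differences on these arrays, which widen the range, so nothing is read from these shares. Mt2A was also among the brightest probe sets, with 2.49% of the others at a higher mean signal, while Mt1 lay in the middle, with 50.1% higher.

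The level of Kupffer cell and macrophage markers was lowest in the rats with the lowest metallothioneins. The summed signal of 9 measured markers of these cells, such as Cd163 and C1qa, was 20238, 18743 and 27752 in CUMS 1–3, 26185, 19229 and 30046 in CUMS 4–6, and 32175, 25966 and 32244 in control 1–3. It too was lowest in CUMS 2, 5 and 1. Its log2 value had a Pearson's r of 0.865 with the mean log2 signal of Mt1 and Mt2A over the 9 rats. The r was 0.407 for the lymphocyte list, 0.377 for the stellate cell and fibroblast list and −0.110 for the hepatocyte list. The stellate cell value included control 3, whose sum of 43197 lay far above the other rats, and no r without that rat is given. These stellate sums rose without overlap from CUMS 1–3 (6563 to 7440) over CUMS 4–6 (8229 to 9999) to control (10957 to 43197). The lower r is therefore not read as a difference from the macrophage list. Outside CUMS 1, 2 and 5 the macrophage markers did not follow the metallothioneins. There control 3 had the highest sum but the lowest metallothionein mean, 11.19, and control 2 had the lowest sum with a mean of 11.63. All 9 macrophage markers lay above the median signal of every array. In CUMS 1–3 against control, 0 of their 10 kept probe sets lay above 0 and 10 below (median log2 difference −0.49). Stellate cells and fibroblasts had 1 above and 16 below (median −1.02), and hepatocytes 7 and 7. At an unadjusted p under 0.05 (limma), 5, 11 and 1 of these were lower and 0 higher, beside 6.76% of all probe sets in either direction. By adjusted p, 0 were called. The part of these cell types in the metallothionein signals was not tested.

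The transcript of Mtf1, which encodes the activator of both genes, was not lower beside them. The brightest of its probe sets read 808, 830 and 677 in CUMS 1–3, 690, 732 and 740 in CUMS 4–6, and 721, 676 and 647 in control 1–3, so the groups overlapped. CUMS 1 and CUMS 2, low in both metallothioneins, held the highest Mtf1 signals. The log2 difference was 0.18 (standard error 0.13) in CUMS 1–3 and 0.08 (standard error 0.13) in CUMS 4–6. Over the 9 rats this probe set ran against Mt2A, with a Pearson's r of −0.781 and a Spearman's rho of −0.533, and with r at −0.785 without CUMS 1 and CUMS 5. The arrays measure transcripts, not MTF-1 protein or its activity, so the part of MTF-1 in the metallothionein signals was not tested.

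The other Mtf1 probe sets differed from the first, and some of their correlations changed when a pair of rats was left out. The second ranged from 237 to 324 in CUMS 1–3, from 260 to 339 in CUMS 4–6 and from 257 to 283 in control, with log2 differences of 0.08 (standard error 0.18) and 0.17 (standard error 0.18). Its r with the first Mtf1 probe set was 0.153, and 0.664 without CUMS 1 and CUMS 2. The third was dim, below the median signal of the array in 8 of 9 rats, at 35.9 to 127 in CUMS 1–3, 55.1 to 99.1 in CUMS 4–6 and 75.3 to 79.5 in control, and its log2 differences of −0.02 and −0.05 had a standard error of 0.45. In CUMS 1–3 its difference ran between −0.39 without CUMS 3 and 0.52 without CUMS 2. Its r with the first was −0.518, and −0.407 without CUMS 1 and CUMS 2. With Mt2A the second had an r of −0.0855 and the third an r of 0.533, which became −0.488 and 0.905 without CUMS 1 and CUMS 5.

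Slc30a1, the zinc exporter that MTF-1 also controls, did not follow the metallothioneins. It read 545, 539 and 490 in CUMS 1–3, 257, 524 and 569 in CUMS 4–6, and 574, 539 and 486 in control 1–3. Only CUMS 4 was low, and that rat had high Mt2A. The log2 difference was −0.02 (standard error 0.26) in CUMS 1–3 and −0.33 (standard error 0.26) in CUMS 4–6, and the second became 0.04 without CUMS 4. Pearson's r with Mt2A was −0.306 and Spearman's rho 0.10.

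The probe sets of Slc39a14 had small differences, of opposite sign in CUMS 1–3 and both below 0 in CUMS 4–6. Its brighter probe set read 4169, 3833 and 4830 in CUMS 1–3, 4627, 3642 and 3146 in CUMS 4–6, and 3607, 4509 and 3767 in control 1–3. The dimmer one read 607, 325 and 664 in CUMS 1–3, 537, 537 and 684 in CUMS 4–6, and 513, 765 and 663 in control 1–3. The groups overlapped in both. The log2 difference in CUMS 1–3 was 0.11 (standard error 0.15) by the first and −0.33 (standard error 0.26) by the second, but the first became 0.02 without CUMS 3 and the second −0.01 without CUMS 2, its lowest rat. In CUMS 4–6 the differences were −0.07 (standard error 0.15) and −0.13 (standard error 0.26). The r between both probe sets over the 9 rats was 0.165.

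**Figure D3:**
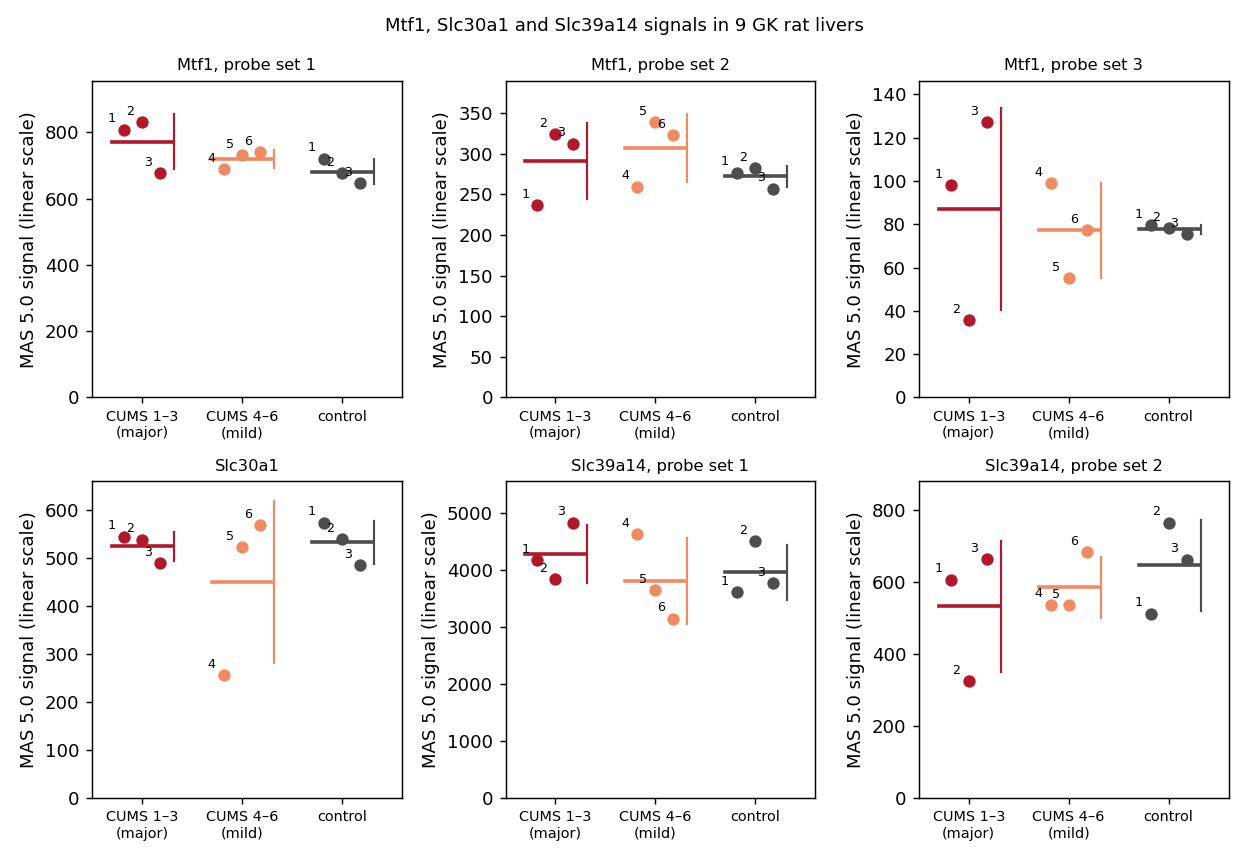
MAS 5.0 signals (linear axes from 0) of the 3 probe sets of Mtf1, 1 of Slc30a1 and 2 of Slc39a14 in CUMS 1–3, CUMS 4–6 and control; points are rats with their numbers, horizontal bars means and vertical bars ± 1 SD (n = 3 rats per group). CUMS 4, at 257, is the only rat with low Slc30a1.

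Across the 8 probe sets, 1 (Mt1) had no overlap between CUMS 1–3 and control, where 11.6% of all probe sets did not overlap in either direction. In CUMS 4–6 against control 0 of 8 were free of overlap, against 11.6% of all, in all 6 CUMS rats against control 0 of 8, against 3.68%, and in CUMS 1–3 against CUMS 4–6 0 of 8, against 9.11%. The genes had been chosen on these contrasts, so nothing is read from these counts.

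**Figure D4:**
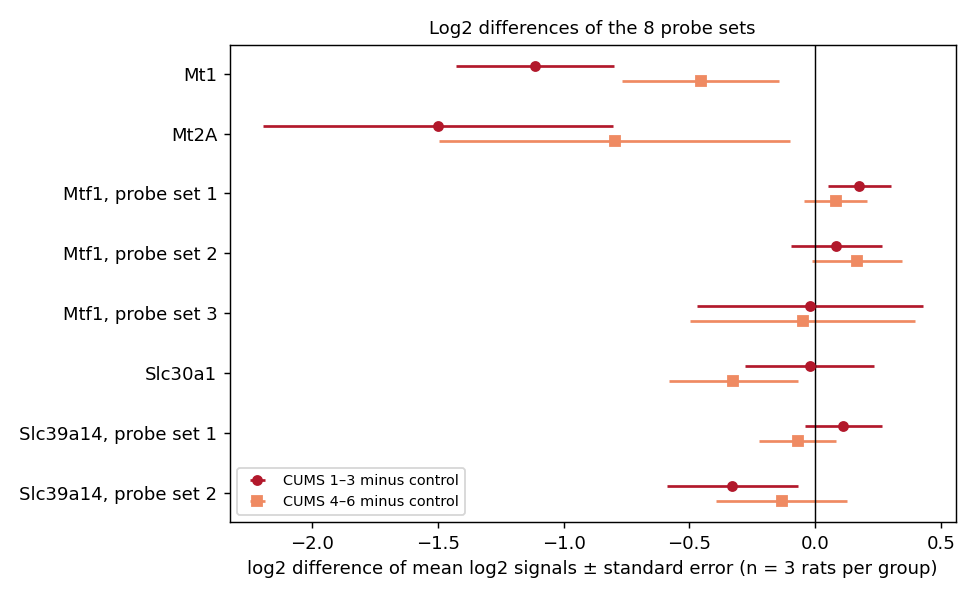
Log2 difference of the mean log2 signal from control for the 8 probe sets, with standard errors from limma (n = 3 rats per group), for CUMS 1–3 (circles) and CUMS 4–6 (squares). Mt1 at −1.11 and Mt2A at −1.50 in CUMS 1–3 lie farthest from 0.

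Other genes of zinc and copper handling showed no change that passed the test. Outside the 5 genes, 42 probe sets of 31 genes were kept by the filter: zinc exporters of the SLC30 family, zinc importers of the SLC39 family, MTF-1 targets and copper genes, with Slc39a10 counted in both of its lists below. By limma, 0 of the 42 passed an adjusted p under 0.05 in any of the 4 comparisons, and neither did any of the 18625 probe sets (0% in CUMS 1–3 against control, 0% in CUMS 4–6, 0% in all CUMS and 0% in CUMS 1–3 against CUMS 4–6). At an unadjusted p under 0.05, 1 was higher and 5 were lower in CUMS 1–3, 0 and 3 in CUMS 4–6, 1 and 5 in all CUMS, and 0 and 1 in CUMS 1–3 against CUMS 4–6. Over all probe sets and in either direction, 6.76% lay under it in CUMS 1–3, 6.28% in CUMS 4–6, 7.93% in all CUMS and 2.85% in CUMS 1–3 against CUMS 4–6. Groups did not overlap in 5 of the 42 in CUMS 1–3 against control, 3 in CUMS 4–6, 1 in all CUMS and 1 in CUMS 1–3 against CUMS 4–6. Over all probe sets the shares without overlap were 11.6%, 11.6%, 3.68% and 9.11%. The median log2 difference of the 42 in CUMS 1–3 was −0.04, beside −0.01 over all probe sets. The other metallothioneins on the array, Mt3 and Mt4, lay below the filter.

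The zinc exporters stayed near the control level in CUMS 1–3. Their 8 kept probe sets had a median log2 difference of 0.05, 5 above 0 and 3 below, with Slc30a10, a manganese exporter, at 0.06 (standard error 0.10). Slc30a6, a zinc transporter of the Golgi, read 817, 838 and 558 in CUMS 1–3, 601, 600 and 481 in CUMS 4–6, and 579, 688 and 555 in control 1–3. CUMS 3 lay among the rats of the other groups, and the log2 difference of CUMS 1–3 minus CUMS 4–6 was 0.38 (standard error 0.18; limma, adjusted p = 0.9996). Of 11 probe sets of zinc importers, 3 lay above 0 and 8 below, with a median of −0.25. The importer with the smallest p in CUMS 1–3 against control was Slc39a11, at 652, 672 and 754 in CUMS 1–3, 828, 573 and 740 in CUMS 4–6, and 1014, 929 and 874 in control 1–3. Every CUMS rat lay below every control rat, with log2 differences of −0.44 (standard error 0.15) in CUMS 1–3 and −0.42 (standard error 0.13) over all 6 (limma, adjusted p = 0.722 and 0.517). Slc39a8, or ZIP8, the closest relative of Slc39a14, had a log2 difference of 0.15 (standard error 0.10; limma, adjusted p = 0.810).

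Of 7 kept probe sets of other MTF-1 targets, which stand for 5 genes, 2 lay above 0 and 5 below in CUMS 1–3, with a median log2 difference of −0.50. Signs were counted without regard to the direction in which MTF-1 acts on each gene. Csrp1, which encodes a LIM domain protein and is known as an MTF-1 target from the mouse, read 1163, 942 and 1400 in CUMS 1–3, 2102, 1010 and 1423 in CUMS 4–6, and 1845, 2744 and 2736 in control 1–3. CUMS 1–3 lay below all controls, but CUMS 4 lay above control 1. Its log2 difference was −1.06 (standard error 0.26) in CUMS 1–3 and −0.73 (standard error 0.26) in CUMS 4–6 (limma, adjusted p = 0.562 and 0.744). The probe sets of Ndrg1, Selenow and Slc39a10, the remaining genes below 0, lay between −1.15 and −0.31, with overlapping groups.

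Gclc, the catalytic subunit of the first enzyme of glutathione synthesis and a further MTF-1 target in the mouse, lay on the other side of 0. The probe set with the smaller p read 3165, 3662 and 1823 in CUMS 1–3, 1850, 2389 and 2231 in CUMS 4–6, and 1900, 1935 and 2054 in control 1–3. The rats with the highest Gclc, CUMS 2, 1 and 5, were those with the lowest Mt2A. The log2 difference was 0.49 (standard error 0.22) in CUMS 1–3 (limma, adjusted p = 0.737) and 0.37 (standard error 0.22) for CUMS 1–3 minus CUMS 4–6 (limma, adjusted p = 0.9996). Its other probe set had a difference of 0.46 (standard error 0.26) in CUMS 1–3. Over the 9 rats its Pearson's r with the mean of Mt1 and Mt2A was −0.876, the lowest of the 5 MTF-1 targets, whose highest was 0.773 for Csrp1 and whose median was 0.256.

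Of 17 probe sets of copper genes, 9 lay above 0 and 8 below in CUMS 1–3, with a median of 0.05. The copper pumps had differences of opposite sign. Atp7a read 246, 316 and 291 in CUMS 1–3, 390, 249 and 327 in CUMS 4–6, and 426, 373 and 531 in control 1–3, with a log2 difference of −0.63 (standard error 0.21) in CUMS 1–3 (limma, adjusted p = 0.719). Atp7b, the pump that hepatocytes use to pass copper into bile, had a log2 difference of 0.50 (standard error 0.25; limma, adjusted p = 0.751).

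**Figure D5:**
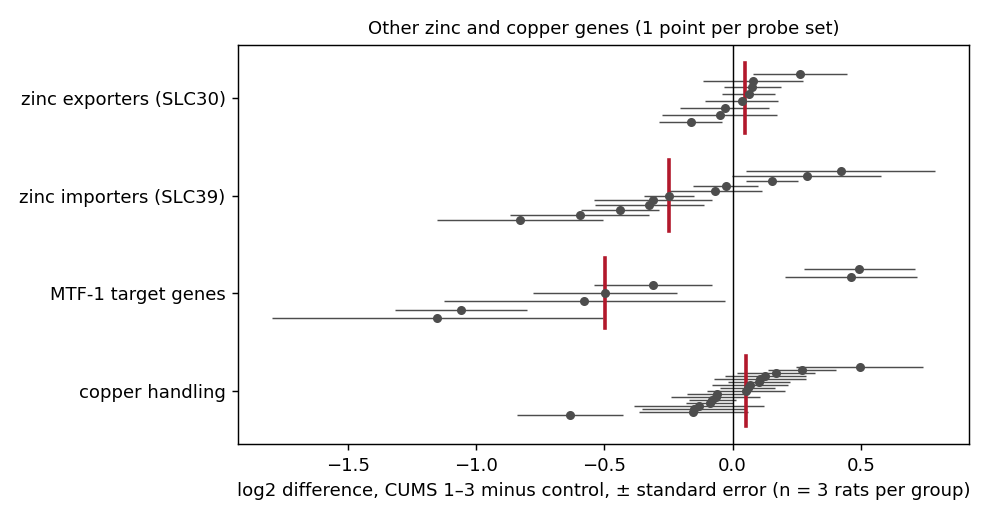
Log2 difference, CUMS 1–3 minus control, of the other kept probe sets of 4 gene lists, 1 point per probe set with its standard error (n = 3 rats per group); red bars are list medians. The medians are 0.05 for zinc exporters, −0.25 for zinc importers, −0.50 for MTF-1 targets and 0.05 for copper genes.

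For genes of the signals that raise metallothionein, 0 calls were made by limma, as for every probe set on the array. Of 14 probe sets of the glucocorticoid receptor and its targets, 5 lay above 0 and 9 below in CUMS 1–3 (median log2 difference −0.23, 0 higher and 3 lower at an unadjusted p under 0.05, where 6.76% of all probe sets lay). Cebpd, a transcription factor induced by glucocorticoids, read 139, 48.5 and 207 in CUMS 1–3 and 241, 348 and 531 in control 1–3, and Sgk1, a kinase, 1284, 1113 and 1031 in CUMS 1–3 against 1571, 1421 and 2031 in control 1–3 (limma, adjusted p = 0.651 and 0.722). Neither overlapped between these groups, but a second Cebpd probe set did, at a log2 difference of −0.66 (standard error 0.37). Of 26 probe sets of IL-6 signalling and the acute phase, 8 lay above 0 and 18 below, with a median of −0.10, 0 higher and 1 lower at an unadjusted p under 0.05, a share below that of all probe sets. That gene was Jak2, a kinase of the IL-6 receptor, at 240, 264 and 270 in CUMS 1–3 and 355, 309 and 371 in control (limma, adjusted p = 0.732). Fga, a chain of fibrinogen, read 10764, 10167 and 20066 in CUMS 1–3 and 16911, 21869 and 17847 in control, a log2 difference of −0.53 (standard error 0.26; limma, adjusted p = 0.749). Its other probe set had a difference of −0.10 (standard error 0.11).

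Over the 9 rats, the median Pearson's r with the mean log2 signal of Mt1 and Mt2A was 0.227 for 10 genes of the glucocorticoid list, from −0.348 for Tat to 0.597 for Cebpd, and 0.312 for 18 genes of the IL-6 list, from −0.367 for Lcn2 to 0.709 for Lbp, beside 0.0141 over all 10403 genes. The medians of the other lists were 0.256 for MTF-1 targets, 0.177 for zinc importers, −0.232 for copper genes and −0.409 for zinc exporters. Among the importers Slc39a11 had the highest, 0.846. The genes most like the metallothioneins among 10401 others were Crebzf, Mcl1, Amacr, Larp7 and Irf1, with r between 0.928 and 0.956 and rho between 0.733 and 0.950. Irf1, an interferon response factor, read 858, 787 and 1089 in CUMS 1–3, 1294, 832 and 1083 in CUMS 4–6, and 1314, 1387 and 1112 in control 1–3. Mcl1, a survival factor of the BCL2 family, read 3310, 3651 and 4667 in CUMS 1–3, 5099, 3510 and 4100 in CUMS 4–6, and 4719, 5135 and 4818 in control 1–3. In both, CUMS 1, 2 and 5 were the 3 lowest rats, but the differences were far smaller than in Mt2A. Without CUMS 1 and CUMS 5, the r of the 5 genes lay between 0.786 and 0.955. They are the highest of many correlations.

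The remaining genes had other neighbours. The first Mtf1 probe set was closest to Apeh, Maco1 and Sel1l, with r between 0.936 and 0.947. The first Slc39a14 probe set was closest to Slc41a2, a magnesium transporter, at 0.964 and at 0.942 without CUMS 3 and CUMS 6. Slc30a1 was closest to Slx1b, Cacnb1 and Dnal1, with r between 0.966 and 0.984, but this rested on CUMS 4. Without CUMS 4 and control 3 the r values were 0.676, 0.299 and 0.350.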

How the data were processed

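Liver RNA was labelled with a 3′ IVT kit and hybridised to Affymetrix rat arrays. The authors normalized the scans with MAS 5.0, and the deposited values are signal intensities on a linear scale with a trimmed mean of 500.2 on each array. MAS 5.0 signals of dim probe sets are noisy. Before taking log2, 57 control probe sets were dropped and a floor of 1 was applied, which replaced 586 signals. The array annotation gave 1 symbol to 20826 probe sets, several to 436 and none to 9780, and only those with 1 were named. Promoter sequences came from RefSeq (GRCr8).

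A filter removed the dimmest 40% of probe sets by their mean over the arrays, and the 18625 kept included all 8 described. The 3 groups were fitted together in R 4.3.3 with limma 3.58.1 (6 residual degrees of freedom, trended variance), with Benjamini-Hochberg adjustment over all probe sets and a threshold of 0.05. Rats are separate animals, and the number of arrays limits the precision. The fit was tested on simulated data. Named beside the 5 genes were the 3 other metal genes with the smallest p in each comparison, the 2 of the glucocorticoid and of the IL-6 list in CUMS 1–3, and the 5 or 3 genes with the highest Pearson's r (1 probe set a gene). Slc30a10, Slc39a8, Atp7b and the remaining MTF-1 targets were named after their values were seen. The genes and lists were chosen with earlier results of these data known. Correlations between same-numbered rats of CUMS 1–3 and control after removal of group means, 0.00296, −0.0486 and 0.140, gave no pairing. Alternatives were other normalizations, filters and variance models, a replicate block, and leaving out each rat.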

Additional observations from a re-analysis of the deposited data

Results flagged for a closer look

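Among the 6 CUMS rats, Slc30a1 in CUMS 4 read 256.7, far below the other 5, which lay between 490 and 569. In the second probe set of Slc39a14, CUMS 2 read 325.2, while the other CUMS rats lay between 537 and 684. Of 18 probe sets examined these 2 stood out, and chance alone flags about 1 in 20. Both belong to genes chosen on these arrays, and the rats pooled here carried different symptom labels, so nothing is read from this count. CUMS 2 and CUMS 4 also had the highest 3′ to 5′ ratios of beta-actin, 5.23 and 4.96, and whether this bears on the signals was not tested.

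One probe set of Slc39a6, a zinc importer of the plasma membrane, lay on opposite sides of the control mean in the stressed groups. It read 40.8, 54.9 and 39.5 in CUMS 1–3, 81.8, 118 and 89.3 in CUMS 4–6, and 107, 67.2 and 68.8 in control 1–3. The log2 difference between CUMS 1–3 and CUMS 4–6 was −1.09 (standard error 0.32; limma, adjusted p = 0.9996). A second Slc39a6 probe set did not show this, since it lay below control in both, at −0.60 in CUMS 1–3 and −0.46 in CUMS 4–6, with −0.13 (standard error 0.27) between them. The signals of the first are dim, and all rats of CUMS 1–3 lay below all control rats.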

How the results depend on the processing

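In the other zinc and copper genes, the count of 0 calls held under all 69 alternatives run over the 4 comparisons. The replicate block was among these, for CUMS 1–3 against control, where numbers did not pair the rats. Over all probe sets, centring on the median called 1 in CUMS 4–6 and 1 in all CUMS rats, against 0 as reported. Leaving out 1 rat gave −1.40 to −0.81 for Mt1 and −2.36 to −0.95 for Mt2A in CUMS 1–3, −0.65 to −0.15 and −1.28 to −0.13 in CUMS 4–6, and −0.97 to −0.35 and −1.56 to −0.16 for CUMS 1–3 minus CUMS 4–6. It gave both signs for the third Mtf1 probe set in CUMS 1–3 (−0.39 to 0.52) and for Slc30a1 in CUMS 4–6 (−0.54 to 0.04). The third Mtf1 probe set and the second of Slc39a14 gave −0.02 and −0.33 in CUMS 1–3 where the first ones gave 0.18 and 0.11. The r of Mt1 and Mt2A ran from 0.862 to 0.959 over alternatives added after the data were seen.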
